A study of Mus musculus with 18 samples.

Results

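The proteasome genes of mouse brown adipocytes were examined in RNA-seq data from 18 libraries, together with Nfe2l1, the transcription factor known for driving their expression, Ddi2, the protease that activates it, and the assembly chaperone Pomp. Members were taken by symbol, as every gene named Psma to Psmg with a number plus these 3 genes, which gave 53 of the 20295 genes in the table. The cells were BAT-LgT, a single wild-type line of mouse brown preadipocytes that carries the SV40 large T antigen, differentiated in culture and treated on day 7. The 6 groups of 3 libraries were Vehicle (DMSO), ISO (isoproterenol at 100 nM, a β-adrenergic agonist) and SR-3420 (a ligand of ABHD5 that activates the lipase ATGL without a receptor signal, at 10 µM per the labels), each for 3 h, and the same treatments after 1 h with inhibitors of ATGL and HSL, each then named with the prefix Lipase Inh. before its treatment. The text of the study gives another dose of SR-3420, and the dose of these samples could not be settled here.

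The proteasome degrades proteins tagged with ubiquitin. Its 20S core is a barrel of α and β subunits with the protease sites inside, and the 19S regulatory particle, built of a base with ATPases and a lid, sits on the core, binds and unfolds substrates and together with the core forms the 26S proteasome. Under interferon, Psmb8, Psmb9 and Psmb10 replace the catalytic subunits Psmb5, Psmb6 and Psmb7 to form the immunoproteasome. NFE2L1 is held at the endoplasmic reticulum and degraded by the proteasome, and when proteasome activity falls short it is cut by DDI2, enters the nucleus and activates proteasome genes, a loop known to be needed for the heat production of brown fat.

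By role the 53 members comprised 8 core α genes, 7 constitutive core β genes, 4 inducible catalytic genes, 6 base ATPases, 11 other lid and base subunits, 8 assembly chaperones, 6 activators or inhibitors, the 2 regulators Nfe2l1 and Ddi2, and Psmc3ip, which shares only its name with the subunits. Of these, 51 passed the filter on low counts and were tested among 12156 genes. Psma8, a testis form of a core subunit, had 0 counts in all libraries, and Psmb11, the thymus form of the catalytic subunit, had 3 counts over all libraries together. Library totals ran from 10310447 to 21205032 counts in 17 libraries and reached 4263755 in Lipase Inh. + SR-3420 replicate 2, where the single gene Lars2 took 18.3% of all counts against at most 0.121% elsewhere. The defining brown adipocyte markers were present, with Adipoq at 2415 to 4026 CPM (counts scaled to a common library size with TMM factors) and Ucp1 at 1.39 to 789 CPM over the libraries, while Dio2, a deiodinase of brown fat, had only 19 counts in all. Summed over 9 brown adipocyte markers, of which 8 were tested, the level was 6378 to 10865 CPM. The 5 preadipocyte or fibroblast markers summed to 88.4 to 137 CPM, with the highest sums in SR-3420 (135 to 137 CPM) against 88.9 to 118 CPM in Vehicle, and their part in the SR-3420 results was not tested. The 7 leukocyte or macrophage markers summed to 2.34 to 6.30 CPM, with Ptprc at 0 counts in every library, and the 4 endothelial markers to at most 0.631 CPM.

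The upstream sequences are shown because NFE2L1 binds antioxidant response elements, and to show which members carry the letters of that element. RefSeq promoters (GRCm38.p6, 250 bases before to 50 after a start) were found for 45 of the 53 members. Psma8, Psmb1, Psmb2, Psmb7, Psmc3, Psmd3, Psmd7 and Psmg2 were not matched. The 200 bases before the start are given for Psma1, the member that changed most, and for Psmb5, a catalytic subunit, on the gene's strand, with capitals marking a CCAAT box on either strand or the element core TGACNNNGC.
Psma1 (chr7:114276117-114276316, minus strand): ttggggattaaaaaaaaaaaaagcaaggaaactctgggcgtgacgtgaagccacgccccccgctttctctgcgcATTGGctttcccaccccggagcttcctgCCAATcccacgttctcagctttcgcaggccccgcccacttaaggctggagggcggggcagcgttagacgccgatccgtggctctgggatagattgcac
Psmb5 (chr14:54617996-54618195, minus strand): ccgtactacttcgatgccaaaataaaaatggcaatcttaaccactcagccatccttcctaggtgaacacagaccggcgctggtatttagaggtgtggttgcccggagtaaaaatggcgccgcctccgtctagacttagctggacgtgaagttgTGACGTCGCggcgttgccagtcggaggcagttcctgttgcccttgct
The upstream stretch of Psma1 held 2 CCAAT boxes, at -126 and -98 from the start, and no element core, whereas Psmb5 held the core at -47 and no CCAAT box. For the other members whose core lies before the start, a short window with the core in capitals is enough to compare them.
Psmb6 (chr11:70525333-70525356, plus strand): gcggactaaagagagTGACGGAGC
Psmd9 (chr5:123228144-123228182, plus strand): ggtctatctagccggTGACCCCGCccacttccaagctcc
Psmc6 (chr14:45329582-45329620, plus strand, core on the minus strand): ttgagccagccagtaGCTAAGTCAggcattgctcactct
Psmd12 (chr11:107479278-107479304, plus strand, core on the minus strand): tctGCTGTGTCAcatttgcccccctca

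A match of letters is a description and not a binding site. Searched on both strands, TGACNNNGC occurred in 6 of the 45 matched members (13.3%), namely Psmb5, the 4 listed after it and Psme4, where it crosses the start, against 14% of all 27025 genes in the promoter table. The cAMP response element TGACGTCA was in 0 of 45 members and 2.03% of all genes, and CCAAT in 16 members (35.6%) against 41.1%. With ISO on top of the inhibitors, the log2 fold changes of the 6 carriers of the core were 1.00 ± 0.08 for Psmd12, 0.69 ± 0.14 for Psmb5, 0.34 ± 0.08 for Psme4, 0.28 ± 0.14 for Psmb6, 0.25 ± 0.08 for Psmd9 and 0.11 ± 0.09 for Psmc6. Those of Psmb6 and Psmc6 did not pass, and differences between carriers were not tested.

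In Vehicle cells the median level of the constitutive classes was well above that of the inducible genes, although the ranges came close. The files place Nfe2l1 at chr11:96678728-96691282, Psma1 at chr7:121408064-121419630, Psmb5 at chr14:55232957-55236832 and Psmb9 at chr17:34319044-34324275, all on the minus strand of mm9. Levels between genes are compared as CPM per kb of counted length. The 14 tested core subunits lay between 7.42 (Psma3) and 118 CPM per kb (Psmb5) with a median of 35.1, and the 17 subunits of the 19S particle between 8.21 (Psmc3) and 97.4 (Psmd7) with a median of 20.6. The subunits of a complex built in fixed proportion thus differed in mRNA level by 15.9-fold in the core and 11.9-fold in the 19S particle. Psmb8 stood at 3.04, Psmb10 at 4.47 and Psmb9 at 6.94 CPM per kb, all below Psma3, although the SD of Psmb9 reached into the level of Psma3. Nfe2l1, at 183 CPM per kb, was above every subunit gene. The plot of levels in Vehicle cells gives all tested members.

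**Figure D1:**
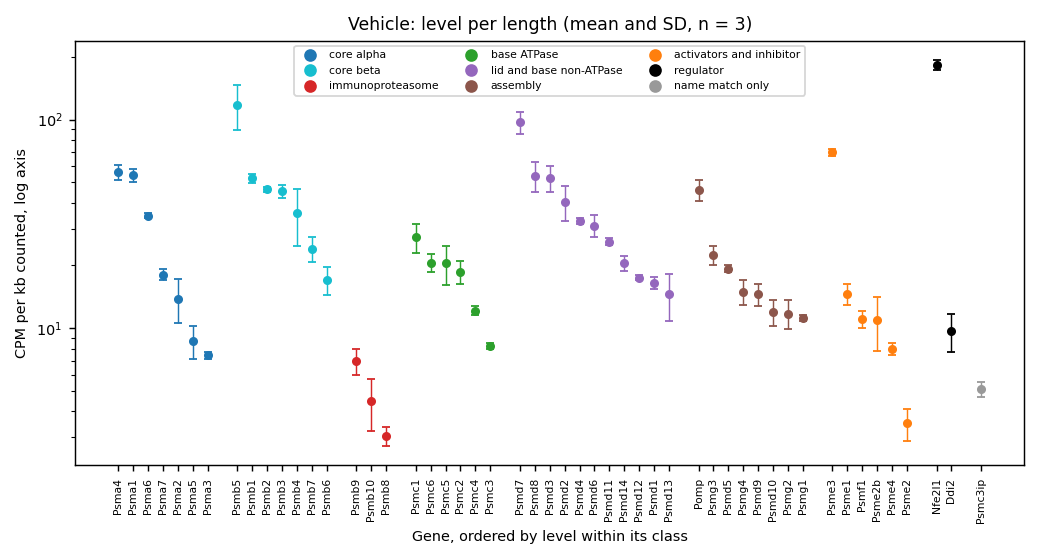
Mean level in Vehicle libraries in CPM per kb of counted length, on a log axis, for the 51 tested members ordered within their class, with bars for the SD of 3 libraries. Nfe2l1 is highest at 183, the core ranges from 7.42 to 118, and the inducible Psmb8, Psmb9 and Psmb10 lie between 3.04 and 6.94.

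To ask how β-adrenergic stimulation acts on these genes while lipolysis can run, ISO was compared with Vehicle. Of 51 tested members 16 rose and 4 fell at an adjusted p of at most 0.05 (31.4% and 7.84%), beside 26.8% and 25% of all genes (edgeR's quasi-likelihood test on all 18 libraries). With TMM scaling, subunits of the 26S proteasome rose only, with a median log2 fold change of 0.23. Of 31, 13 were higher and 0 lower (14 of the 31 belong to the core and 17 to the 19S particle). In the core 4 of 14 rose (Psma1, Psma5, Psma6 and Psmb2), a share of 28.6% that was close to the 26.8% of all genes. In the 19S particle 9 of 17 rose (52.9%). The 4 members that fell, Psmg3, Psmg4, Psmd5 and Psmd10, were all assembly chaperones, a class of 8 with a median of -0.21 and with 0 genes higher. Psmg3 and Psmg4 help build the core ring and Psmd5 and Psmd10 the base. In these bulk samples a change in the share of cells and a change in RNA per cell cannot be told apart.

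Psma1, an α ring subunit, changed most and was the only member past the study's fold threshold of 1 on the log2 scale, which 5.03% of all genes passed upwards. It measured 64.3, 66.4 and 73.3 CPM in Vehicle and 136, 149.9 and 148 CPM with ISO. Every ISO library was thus above every Vehicle library, and the log2 fold change was 1.09 ± 0.08 (SE, n = 3 per group; adjusted p from edgeR = 1.99e-10). Psma5, another α subunit, measured 12.8, 9.58 and 9.35 CPM in Vehicle and 15.5, 27.5 and 17.2 CPM with ISO (log2 fold change 0.91 ± 0.20), with ISO replicate 2 well above the rest. Psmb2, a non-catalytic β subunit, went from 39.8, 38.2 and 39.9 to 50.03, 53.1 and 49.8 CPM (0.38 ± 0.08).

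In the 19S particle, Psmd4, a receptor for ubiquitin chains, was highest in fold. Its level was 44.6, 42.5 and 45.2 CPM in Vehicle and 68.8, 80.4 and 61.1 CPM with ISO (0.67 ± 0.09; adjusted p from edgeR = 1.8e-06). Psmd12, a lid subunit, rose from 29.3, 31.0 and 29.9 to 42.9, 50.1 and 43.0 CPM (0.59 ± 0.08), and the base ATPase Psmc4 from 18.3, 17.3 and 16.7 to 23.9, 31.5 and 23.0 CPM (0.58 ± 0.13). In all 3 the groups did not overlap. Among the activators, Psme3, which encodes the nuclear PA28γ cap, measured 174, 186 and 187 CPM in Vehicle and 284, 298 and 269.8 CPM with ISO (0.64 ± 0.07), and Psme4, the PA200 cap, also rose (0.33 ± 0.08). Psme1 and Psme2, which form the interferon-responsive PA28 cap, did not pass (0.23 ± 0.12 and 0.07 ± 0.22). Reads of Psme2 and its near copy Psme2b may be split between them.

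The constitutive catalytic subunits were not among the genes called. Psmb5 measured 109, 94.8 and 66.2 CPM in Vehicle, a wide spread, and 84.7, 93.3 and 77.4 CPM with ISO (-0.08 ± 0.15). Psmb6 (0.23 ± 0.14) and Psmb7 (0.08 ± 0.17) did not pass either. The approximate 95% interval of the log2 fold change ran from -0.37 to 0.20 for Psmb5 and from -0.04 to 0.50 for Psmb6.

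Nfe2l1 itself was not called with ISO. It measured 888, 868 and 796 CPM in Vehicle and 977, 949 and 874 CPM with ISO, overlapping ranges, with a log2 fold change of 0.13 ± 0.07 (adjusted p from edgeR = 0.127). Ddi2 rose from 10.9, 16.5 and 15.5 to 25.6, 27.5 and 24.2 CPM (0.86 ± 0.12; adjusted p from edgeR = 3.1e-06). Vehicle replicate 1 is the low value, and the Ddi2 span overlaps Rsc1a1 on the same strand, so that reads of both may mix.

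The direction of these changes depends on how libraries are scaled. When library totals replaced the TMM factors, the median of all 12156 genes moved from -0.02 to -0.33, and the members counted 6 higher (12.3% of all genes) and 18 lower (49.4% of all genes) with a median of -0.18. All 6 were among the 16. Of the 26S subunits 4 were then higher and 8 lower, with a median of -0.08. Relative to the median of all genes the member median was 0.15 under either scaling, and for the 26S subunits 0.25. A change of scaling moves all genes by about the same amount, so this equality was nearly fixed in advance and tests nothing. Every change given here is therefore relative to other genes. Without Vehicle replicate 1 the count of lower members was 0, without Vehicle replicate 2 it was 2 and without ISO replicate 2 it was 1.

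**Figure D2:**
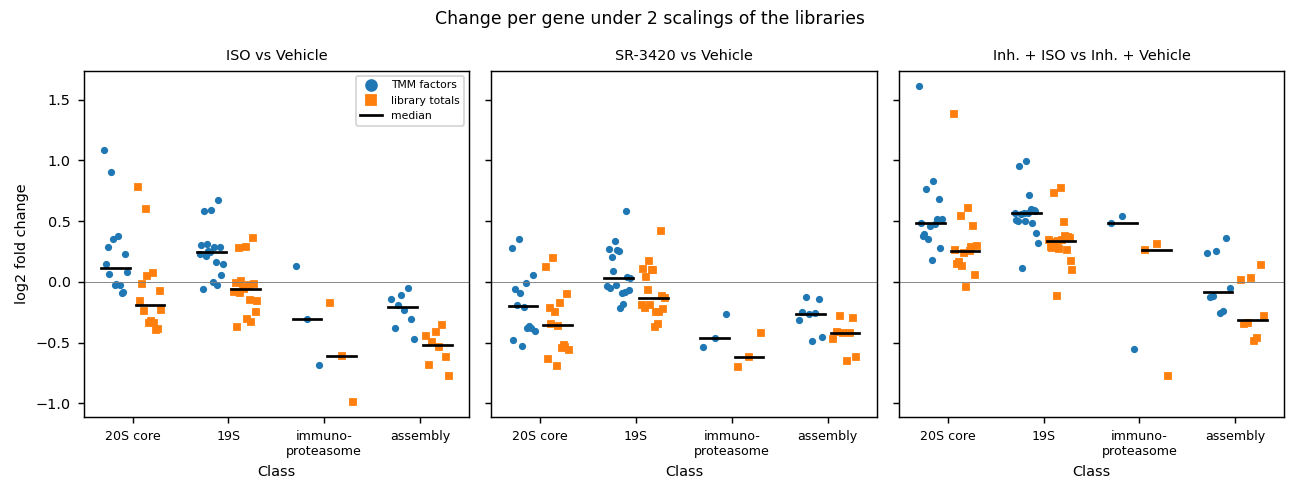
Log2 fold change of each tested gene of 4 classes in 3 comparisons, with libraries scaled by TMM factors (circles) or by library totals (squares), and a bar at the median of the class. Every class shifts down under library totals, and for Inh. + ISO against Inh. + Vehicle the median of the core (0.26) and of the 19S particle (0.34) stay above 0.

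SR-3420, which starts lipolysis below the receptor, was compared with Vehicle to see what lipolysis alone does. Of the 51 members 9 rose and 12 fell (17.6% and 23.5%, beside 26% and 25.4% of all genes), and the member median was -0.09. With TMM scaling 1 core gene rose (Psma1) and 6 fell (Psma2, Psma7, Psmb1, Psmb3, Psmb5 and Psmb7). These were 7.14% and 42.9% of the core, with a class median of -0.20. In the 19S particle 5 rose (Psmc2, Psmc6, Psmd4, Psmd11 and Psmd12) and 0 fell, with a class median of 0.03. The 29.4% higher in the 19S particle was close to the 26% of all genes, whereas its 0% lower stood beside 25.4%. Under library totals both classes went down, with 0 higher and 9 lower in the core (median -0.36) and 1 higher and 3 lower in the 19S particle (median -0.13). Of all genes 16% were then higher and 35.9% lower. The summed counts of the 14 core genes were 0.547, 0.567 and 0.568 of those of the 17 genes of the 19S particle in Vehicle and 0.505, 0.477 and 0.494 with SR-3420, a ratio within each library that no scaling affects, and the groups did not overlap. With ISO it was 0.570, 0.605 and 0.595. With the inhibitors alone it was 0.530, 0.540 and 0.520, also below every Vehicle library. On top of the inhibitors it was 0.539, 0.561 and 0.550 with SR-3420 and 0.602, 0.590 and 0.605 with ISO. Since it is a sum over chosen members, the ratio was given no test.

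The largest fall in the core was that of the α subunit Psma7 (-0.53 ± 0.16; adjusted p from edgeR = 0.00918), whose mean level went from 17.2 ± 1.01 to 11.9 ± 0.26 CPM (SD, n = 3 each). Psmb5 fell to 65.8, 76.5 and 65.9 CPM (-0.38 ± 0.15), but these values met the lowest Vehicle library, and the call was lost without Vehicle replicate 1 (-0.22) or 2 (-0.34) or SR-3420 replicate 1 (-0.34) or 3 (-0.34). Among assembly genes Psmg1, a chaperone of the α ring, fell from 11.4, 11.1 and 10.6 to 6.98, 8.76 and 7.86 CPM (-0.49 ± 0.12), and Psmg4 (-0.46 ± 0.17), Pomp (-0.32 ± 0.10) and Psmd9 (-0.27 ± 0.09) fell as well. Psme1 (-0.36 ± 0.12) and Psme2b (-0.68 ± 0.20) fell while Psme3 rose (0.37 ± 0.07).

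Psmd4 was the 19S subunit that rose most, to 66.5, 70.3 and 61.4 CPM (0.58 ± 0.09; adjusted p from edgeR = 1.36e-05), above all Vehicle libraries, and Psmc6 rose by 0.34 ± 0.09. Both regulators rose. Nfe2l1 measured 1005, 1087 and 1068 CPM, above every Vehicle library (0.31 ± 0.07; adjusted p from edgeR = 0.00123), and Ddi2 23.7, 25.8 and 24.0 CPM (0.79 ± 0.12). Under library totals the members counted 3 higher (16% of all genes) and 23 lower (35.9% of all genes), and the change of Nfe2l1 no longer passed (0.15), while Psmd4 and Ddi2 kept a log2 fold change above 0. The 12 falls rest on few libraries: without Vehicle replicate 1 they were 3 and without SR-3420 replicate 3 they were 5.

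Set side by side, ISO and SR-3420 share the Vehicle libraries, so they were also compared directly. Against SR-3420, 19 members were higher with ISO and 0 lower (37.3%, beside 15.8% and 13.9% of all genes; 1 member was lower at an unadjusted p under 0.05, and DESeq2 called 0). All 7 tested core α genes were among the 19, with log2 differences from 0.26 (Psma4) to 0.81 (Psma1), as were Psmb2, Psmb3, Psmb7, 5 of 17 genes of the 19S particle, Psmb10 and the caps Psme1, Psme2b and Psme3. Under library totals 3 stayed higher and 2 were lower, beside 775 higher and 3035 lower of all 12156 genes. With TMM the count of higher members was 11 without SR-3420 replicate 1, 8 without ISO replicate 2 and 9 without SR-3420 replicate 3.

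The inhibitors by themselves left these genes close to Vehicle. In Lipase Inh. + Vehicle against Vehicle 0 of 51 members passed in either direction, beside 0.485% higher and 0.428% lower of all genes; at an unadjusted p under 0.05, 1 was higher and 3 lower, and DESeq2 also called 0. The member median was -0.05. Nfe2l1 measured 971, 1048 and 937 CPM, above the 3 Vehicle libraries, with a log2 fold change of 0.21 ± 0.07 that did not pass after adjustment (adjusted p from edgeR = 0.222).

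With the lipases blocked, nearly all subunits of the 26S proteasome rose with ISO. In Lipase Inh. + ISO against Lipase Inh. + Vehicle 34 of 51 members rose (66.7%) and 1 fell, beside 29.4% and 28.3% of all genes, with a member median of 0.48. Of the 31 subunits of the 26S particle 28 rose and 0 fell (90.3%), with a median of 0.52. In all, 12 of 14 core genes and 16 of 17 genes of the 19S particle passed. The 3 that did not pass were Psmb1 (0.18 ± 0.08), Psmb6 (0.28 ± 0.14) and Psmc6 (0.11 ± 0.09). The changes were modest, and all but Psma1 were below the fold threshold of the study, which 5.43% of all genes passed upwards.

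Psma1 measured 58.8, 60.6 and 57.03 CPM with the inhibitors alone and 174, 171 and 193 CPM with ISO added, a log2 fold change of 1.61 ± 0.08 (3.05-fold; adjusted p from edgeR = 2.07e-13). Psmd12 went from 31.0, 31.9 and 28.6 to 62.1, 61.2 and 58.9 CPM (1.00 ± 0.08, just under the fold threshold), and Psmc4 from 16.0, 15.1 and 15.5 to 29.4, 31.4 and 29.7 CPM (0.96 ± 0.12). Psmb2 rose from 34.9, 40.9 and 36.3 to 63.8, 69.6 and 65.8 CPM (0.83 ± 0.08). In these 4 genes the groups lay well apart. The other members that rose had log2 fold changes from 0.24 (Pomp) to 0.77 (Psma5), among them Psmd14 (0.71 ± 0.08), the deubiquitinase of the lid.

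The catalytic subunit Psmb5 now rose as well. It measured 76.0, 93.8 and 69.3 CPM with the inhibitors and 121, 148 and 116 CPM with ISO added (0.69 ± 0.14; adjusted p from edgeR = 0.000354), with no overlap. Psmb7 rose by 0.52 ± 0.16. Among assembly genes Psmg3 (0.36 ± 0.10), Psmd9 (0.25 ± 0.08) and Pomp (0.24 ± 0.10) rose and 0 fell, and Psme3 rose from 181, 196 and 172 to 262, 262 and 242 CPM (0.48 ± 0.07). Summed over the 14 core genes the level was 463, 496 and 443 CPM with the inhibitors and 737, 782 and 753 CPM with ISO added, and over the 17 genes of the 19S particle it was 874, 919 and 852 against 1224, 1326 and 1246 CPM.

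The member that fell was Nfe2l1, joined by 1 more without Lipase Inh. + ISO replicate 3 (2 lower in all). It measured 971, 1048 and 937 CPM with the inhibitors and 566, 608 and 596 CPM with ISO added, a log2 fold change of -0.74 ± 0.07 (0.599-fold; adjusted p from edgeR = 1.61e-08). These were its lowest values in the 18 libraries, in the group where the 26S subunits were at their highest sums. Ddi2 rose from 16.99, 15.9 and 16.3 to 26.6, 24.1 and 24.4 CPM (0.61 ± 0.12), so that the ratio of Nfe2l1 to Ddi2 per counted length, which no scaling affects, was 6.74, 7.98 and 7.70 in this group and 18.1, 20.8 and 18.2 with the inhibitors alone.

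This pattern changed less with the scaling than that of ISO alone. Under library totals 17 members, all among the 34, were higher (16.2% of all genes) and 6 lower (42.1% of all genes); of the 26S subunits 15 were higher and 0 lower, with a median of 0.29 while the median of all genes was -0.24. Relative to the latter, the 26S median was 0.53 under either scaling, an equality that the shared shift of all genes nearly fixes in advance.

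**Figure D3:**
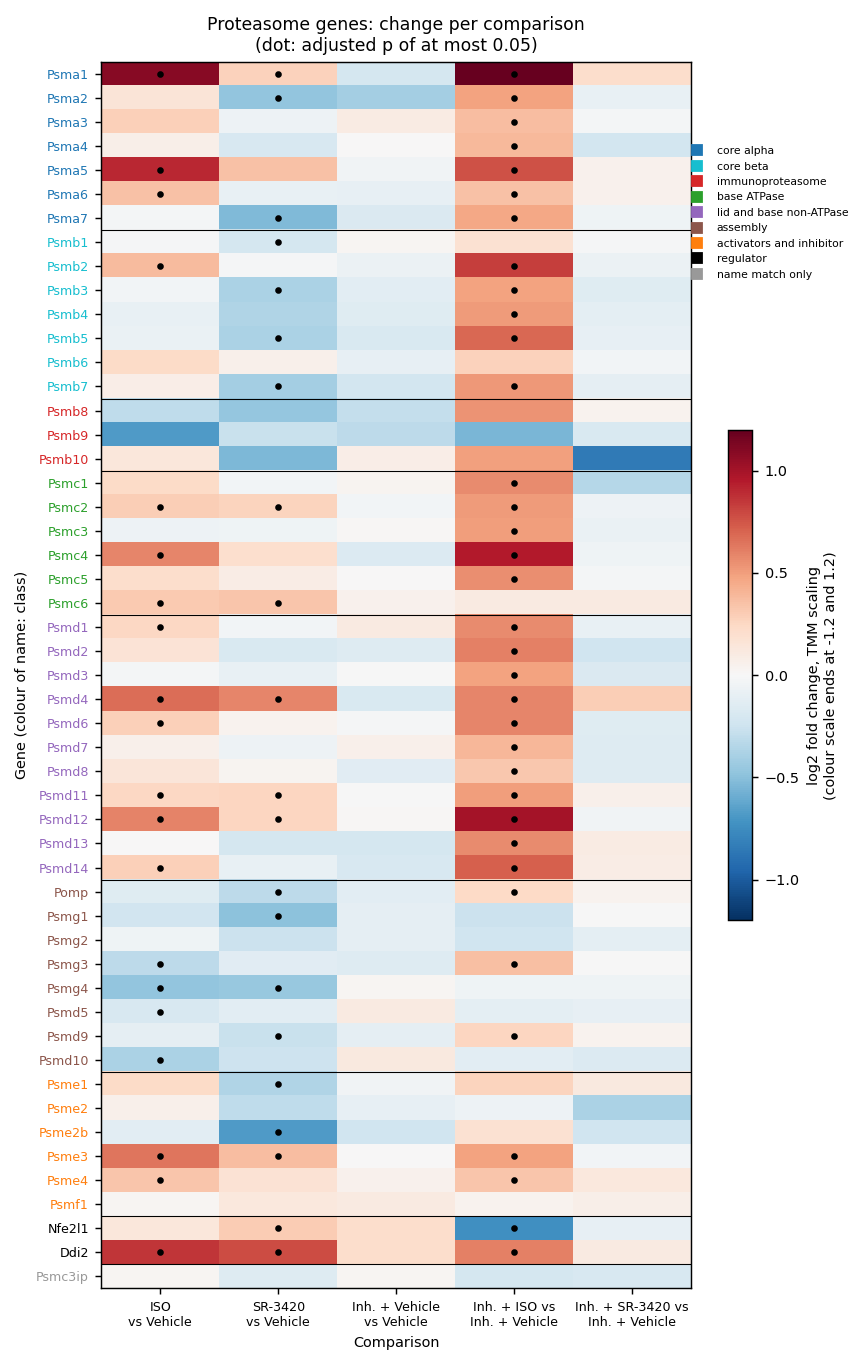
Log2 fold change of the 51 tested members (rows, grouped by class) in 5 comparisons (columns), with TMM scaling; a dot marks an adjusted p of at most 0.05, and the colour ends at -1.2 and 1.2. The column for Inh. + ISO carries dots for 34 rises and 1 fall, that of Nfe2l1, and the columns for the inhibitors alone and for Inh. + SR-3420 carry none.

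**Figure D4:**
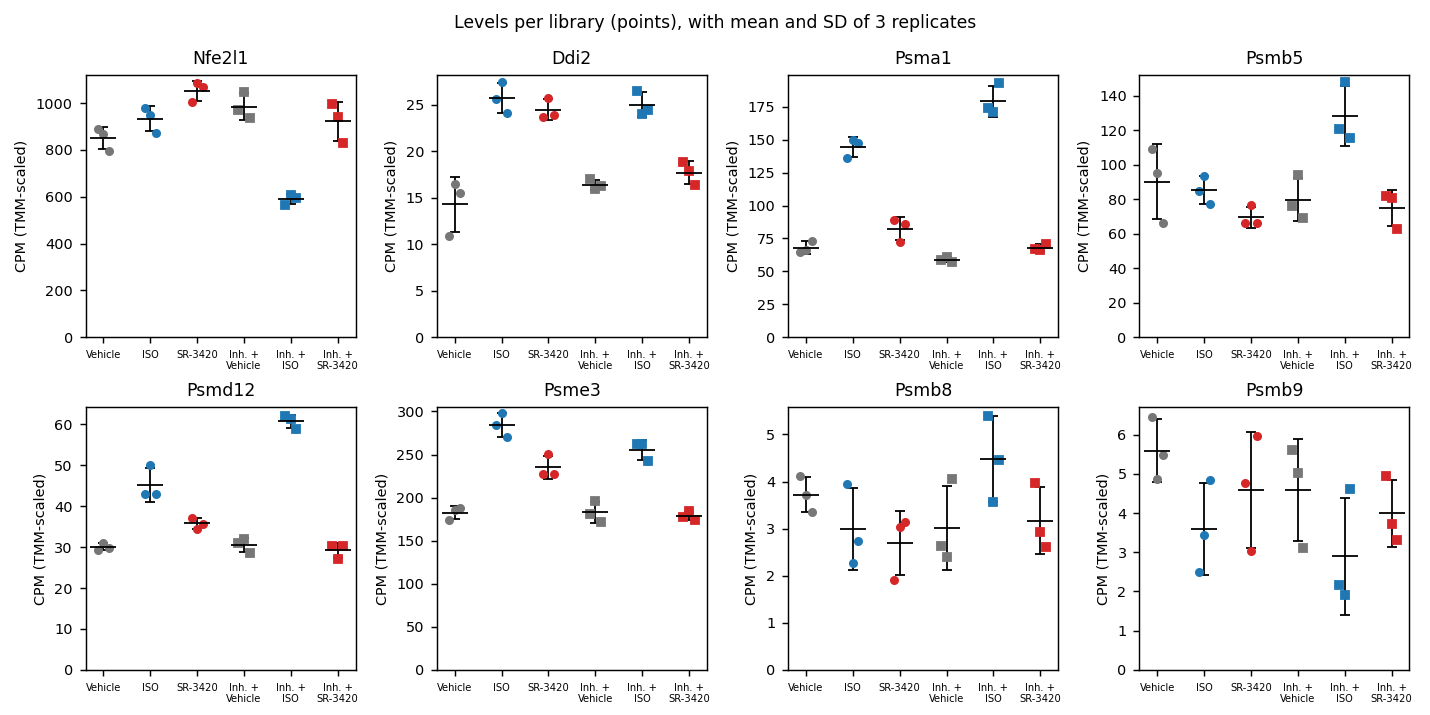
Level in CPM of 8 members in each of the 18 libraries by group (circles without and squares with inhibitors), with a bar for the mean and whiskers for the SD of 3 libraries; every axis starts at 0. Nfe2l1 is lowest and Psma1, Psmb5 and Psmd12 are highest with Lipase Inh. + ISO, while Psmb8 and Psmb9 stay between 1.91 and 6.45 CPM in all libraries.

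Whether the inhibitors altered the ISO effect was tested by the interaction, the ISO effect with inhibitors minus the effect without. It was positive and passed for 16 members and negative for 1 (31.4% and 1.96%, beside 14.9% and 16.6% of all genes), with a member median of 0.31. The 16 comprised 6 core genes (Psma1, Psma4, Psmb2, Psmb3, Psmb4 and Psmb5), 7 genes of the 19S particle (Psmc3, Psmd1, Psmd3, Psmd7, Psmd12, Psmd13 and Psmd14) and the assembly genes Psmg3, Psmd9 and Pomp. The difference was largest for Psmb5 (0.77 ± 0.21; adjusted p from edgeR = 0.0065), then for Psmg3 (0.67 ± 0.15), which fell with ISO alone and rose with ISO on top of the inhibitors. Psma1 (0.52 ± 0.11), Psmb2 (0.46 ± 0.12) and Psmd12 (0.40 ± 0.11) rose in both settings and more with the inhibitors. Under library totals the counts were 18 and 1, beside 2071 and 1464 of all 12156 genes, and all 17 calls were kept.

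The negative interaction was that of Nfe2l1, at -0.87 ± 0.10 (adjusted p from edgeR = 9.15e-07). The interaction did not pass for Psma5 (-0.14 ± 0.29), Psma6 (0.00 ± 0.12), Psmd4 (-0.08 ± 0.13), Psme3 (-0.16 ± 0.09) or Ddi2 (-0.25 ± 0.17), which rose in both settings. Without Vehicle replicate 1, and likewise without Lipase Inh. + Vehicle replicate 1, the count of positive interactions was 10; that of Nfe2l1 passed without any of the 12 libraries of the 4 groups.

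**Figure D5:**
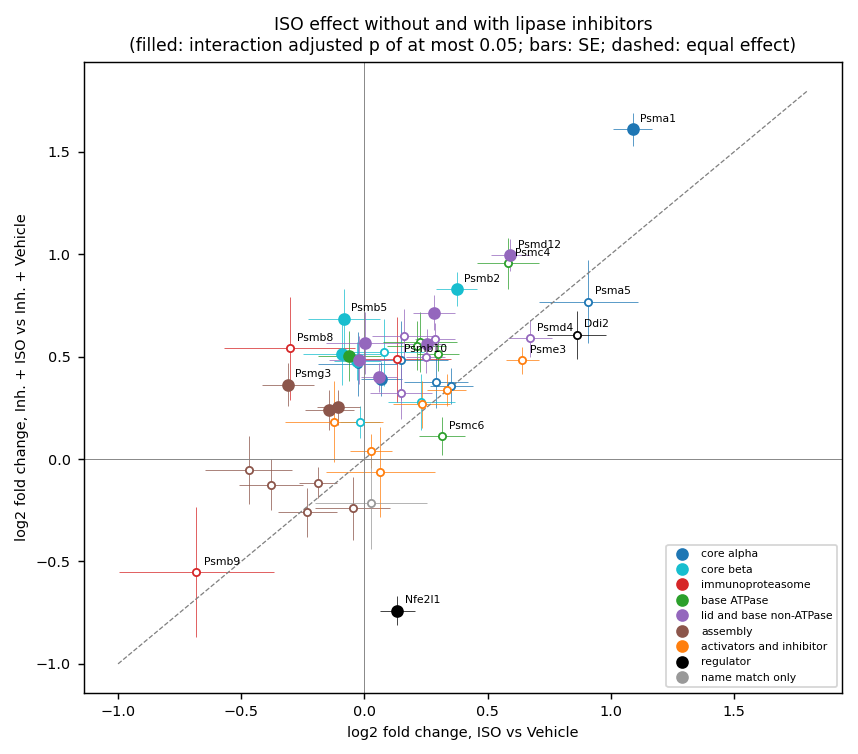
Log2 fold change of the 51 tested members with ISO against Vehicle (horizontal) and with Lipase Inh. + ISO against Lipase Inh. + Vehicle (vertical), coloured by class, with bars for the SE and a dashed line at equal effect; filled points passed the interaction test. Most subunits lie above the dashed line, Psma1 at 1.09 and 1.61 is farthest up, and Nfe2l1 at 0.13 and -0.74 lies far below.

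When the lipases were blocked, no member was called with SR-3420 by edgeR, and Psmb10 was called lower in several other fits. In Lipase Inh. + SR-3420 against Lipase Inh. + Vehicle 0 members passed, beside 2.99% higher and 1.36% lower of all genes, with a member median of -0.05; at an unadjusted p under 0.05, 2 were higher and 3 lower, and DESeq2 called 1, Psmb10, lower (-0.83). The group includes the shallow library, and leaving it out gave 1 lower member, again Psmb10 (-1.03), as did leaving out Lipase Inh. + Vehicle replicate 3 (-0.98). The interaction passed upwards for 2 members and downwards for 4 (12.5% and 14.8% of all genes). It was negative for Ddi2 (-0.68 ± 0.17), Nfe2l1 (-0.40 ± 0.10), Psme3 (-0.40 ± 0.09) and Psmc2 (-0.33 ± 0.12), which rose with SR-3420 alone, and positive for Psmg1 (0.48 ± 0.17) and Psme1 (0.48 ± 0.17), which fell with it. Ddi2 measured 18.8, 17.9 and 16.4 CPM in Lipase Inh. + SR-3420 against 16.99, 15.9 and 16.3 CPM with the inhibitors alone. The positive calls were fragile: 0 passed without Vehicle replicate 1, SR-3420 replicate 1, SR-3420 replicate 3 or Lipase Inh. + Vehicle replicate 3, and 1 without Vehicle replicate 3, Lipase Inh. + Vehicle replicate 2 or any of the Lipase Inh. + SR-3420 libraries.

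The immunoproteasome genes were compared with the constitutive subunits they replace. Counts were low, from 11 to 174 per library and gene, and 0 of the 3 tested genes passed against the matching Vehicle group in any of the 5 comparisons with edgeR (unadjusted p under 0.05: Psmb9 lower with ISO, Psmb10 lower with SR-3420, Psmb8 and Psmb10 higher with Lipase Inh. + ISO and Psmb10 lower with Lipase Inh. + SR-3420; DESeq2 called the last of these). Psmb8 measured 4.11, 3.71 and 3.35 CPM in Vehicle and 3.96, 2.27 and 2.73 CPM with ISO (-0.30 ± 0.26), and 2.62, 2.39 and 4.05 CPM with the inhibitors and 5.402, 3.57 and 4.46 CPM with ISO added (0.54 ± 0.25; adjusted p from edgeR = 0.0708). Psmb9 measured 6.45, 4.87 and 5.47 CPM in Vehicle and 2.50, 3.44 and 4.83 CPM with ISO, ranges that did not overlap (-0.68 ± 0.31; adjusted p from edgeR = 0.0753, approximate 95% interval -1.30 to -0.06). Its fall passed under library totals (-0.99), without the filter on low counts (-0.69), with only both groups in the fit (-0.70) and without ISO replicate 3 (-0.93). Psmb10 was higher with ISO than with SR-3420 (0.67 ± 0.23, adjusted p from edgeR = 0.0302). Against Vehicle it changed by 0.13 with ISO and by -0.54 with SR-3420, so most of that gap lay in its lower level with SR-3420. With ISO on top of the inhibitors Psmb10 just missed the threshold (0.49 ± 0.21, adjusted p from edgeR = 0.0503).

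The inducible genes can also be set against their constitutive counterparts within each library, as ratios of counts per length, which no scaling affects. The ratio of Psmb9 to Psmb6 was 0.399, 0.407 and 0.415 in Vehicle and 0.166, 0.186 and 0.318 with ISO, groups that did not overlap. With the inhibitors it was 0.476, 0.342 and 0.253, and with ISO added 0.147, 0.112 and 0.306, which overlapped. Psmb8 to Psmb5 was 0.0215, 0.0159 and 0.0364 with the inhibitors and 0.0279, 0.0150 and 0.0240 with ISO added, and Psmb10 to Psmb7 was 0.210, 0.264 and 0.220 against 0.213, 0.214 and 0.250, so that both pairs of groups overlapped. Both ratios also overlapped between Vehicle and ISO. Psmb8 to Psmb5 was 0.0235, 0.0244 and 0.0315 in Vehicle and 0.0291, 0.0151 and 0.0220 with ISO. Psmb10 to Psmb7 was 0.213, 0.175 and 0.162 in Vehicle and 0.209, 0.146 and 0.271 with ISO. Summed over Psmb8, Psmb9 and Psmb10 the level stayed between 8.46 and 18.01 CPM in all libraries, while the summed core ranged from 437 to 782 CPM. The summed leukocyte markers moved with ISO, from 2.34 to 3.97 CPM in Vehicle to 4.202 to 6.30 CPM with ISO. That sum was mostly Cd68, with 771 counts over all libraries against at most 66 for any other marker (Csf1r). The brown adipocyte markers moved from 7408 to 8146 CPM to 9589 to 10865 CPM, but unevenly, with log2 fold changes from -0.16 (Pparg) to 7.08 (Ucp1). The part of either sum in the ISO results was not tested.

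Genes of antigen processing and of the interferon response, which immunoproteasome genes are known to accompany, were taken as a list of 10, all tested. With ISO 0 rose and 4 fell (0% and 40%, beside 26.8% and 25% of all genes): Tap1 (-0.70 ± 0.12), which moves peptides into the endoplasmic reticulum, its partner Tap2 (-0.32 ± 0.13), Tapbp (-0.44 ± 0.07) and the transcription factor Irf1 (-0.50 ± 0.13). With ISO on top of the inhibitors 2 rose and 5 fell (20% and 50%, beside 29.4% and 28.3%), with Irf1 at -1.10 ± 0.14, Tap1 at -0.99 ± 0.12 and H2-K1, a class I heavy chain that presents peptides, at 0.35 ± 0.10. The list median was -0.11 and -0.18, beside -0.02 and -0.01 over all genes.

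Of 15 genes that process or partner NFE2L1, 5 rose and 4 fell with ISO (33.3% and 26.7%), close to the 26.8% and 25% of all genes. With Lipase Inh. + ISO 6 rose and 6 fell (40% each, beside 29.4% and 28.3%). The segregase Vcp, which pulls NFE2L1 out of the membrane, did not pass with ISO (-0.16 ± 0.07) and rose with Lipase Inh. + ISO (0.49 ± 0.07), and its cofactor Nploc4 rose in both (0.39 ± 0.06 and 0.71 ± 0.06). Ngly1, which removes sugar chains from NFE2L1, fell in both (-0.22 ± 0.08 and -0.45 ± 0.08). The dimer partner Maff rose (1.51 ± 0.12 and 0.58 ± 0.12), whereas the relative Nfe2l3 fell (-1.38 ± 0.17 and -2.46 ± 0.19). With SR-3420 7 rose and 2 fell (46.7% and 13.3%, beside 26% and 25.4%), among them Nfe2l2, the oxidative stress factor, up by 0.74 ± 0.08, and Vcp at -0.35 ± 0.07.

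Of 10 other proteins of the proteasome, 6 rose and 0 fell with ISO, 6 rose and 1 fell with SR-3420 and 6 rose and 0 fell with Lipase Inh. + ISO. These 60% higher stand beside 26.8%, 26% and 29.4% of all genes, and the 0%, 10% and 0% lower beside 25%, 25.4% and 28.3%. Zfand2a, a stress-induced proteasome adaptor, rose with ISO (1.07 ± 0.11) and likewise with SR-3420 (1.09 ± 0.11), and its ISO effect was smaller with the inhibitors (interaction -0.76 ± 0.15). Usp14, a deubiquitinase bound to the base, rose by 0.75 ± 0.09 with ISO and 0.57 ± 0.09 with Lipase Inh. + ISO, and the ubiquitin receptor Adrm1 by 0.57 ± 0.11 in the latter. Akirin2, which brings proteasomes into the nucleus, rose by 0.84 ± 0.07, 0.70 ± 0.07 and 0.38 ± 0.07 in the 3 comparisons.

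Of 6 genes for ubiquitin and its activating enzymes, 3 rose and 0 fell with ISO (50% and 0%, beside 26.8% and 25% of all genes), and 3 rose and 1 fell with Lipase Inh. + ISO (50% and 16.7%, beside 29.4% and 28.3%). Ubb, which encodes a chain of ubiquitin units and is known to respond to stress, rose with ISO (0.36 ± 0.11) and SR-3420 (0.49 ± 0.11) and fell with Lipase Inh. + ISO (-0.83 ± 0.11), with an interaction of -1.19 ± 0.15. The activating enzyme Uba1 rose in the last comparison (0.65 ± 0.08).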

How the data were processed

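RNA-seq was performed by the authors on total RNA of 6 groups of 3 cultures (TruSeq2 libraries), aligned with STAR 2.4.2a to mm9 and counted over RefSeq genes with HOMER and iRNA-seq, per the labels and methods. The deposited table holds raw counts per gene with no normalisation. Use of strand is not stated, so overlapping genes may share reads. No molecular identifiers are described, and 10310447 to 21205032 counts per library (4263755 in the shallow library) set the precision.

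The count table was tested with edgeR 4.0.16 under R 4.3.3, using filterByExpr (minimum count 10, minimum total 15), TMM factors, 1 quasi-likelihood fit over 18 samples with a mean per group, and Benjamini-Hochberg adjustment over 12156 genes. SEs come from the fold change and its F statistic, and intervals are normal approximations at 95%. Nothing states how the cultures were separated beyond independent experiments, so p-values measure the spread between these samples. The scripts were tested on simulated data. Named were the regulators, catalytic subunits with their inducible counterparts, Psme1 and Psme2, the largest significant change per class in the ISO, SR-3420 and Lipase Inh. + ISO comparisons, and members past the fold threshold; others were named after their values were seen. The members and lists were chosen with earlier results of these data known. Alternatives were library totals, RLE factors, DESeq2 1.42.0, no filter, only the groups compared, thinning to the smallest library, a fit with the replicate numbers, and leaving out each library. Some genes of the lists are not reported here. No protein sequences were used here.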

Additional observations from a re-analysis of the deposited data

Results flagged for a closer look

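The effect of ISO or of SR-3420 differed between cells with and without lipase inhibitors for 12 results of the named members, by the interaction term of the edgeR fit with all 18 libraries. For ISO the difference in log2 fold change was -0.87 for Nfe2l1, 0.77 for Psmb5, 0.67 for Psmg3, 0.52 for Psma1, 0.46 for Psmb2, 0.40 for Psmd12 and 0.38 for Pomp. That of Pomp was lost in several fits that left out a library (adjusted p from edgeR = 0.0408 with all). For SR-3420 it was -0.68 for Ddi2, -0.40 for Nfe2l1, -0.40 for Psme3, 0.48 for Psme1 and 0.48 for Psmg1. The latter pair passed narrowly, and that of Psmg1 did not pass with DESeq2. The results for ISO share the same 4 groups, as do those for SR-3420, and the ISO and SR-3420 results share the Vehicle and Lipase Inh. + Vehicle libraries, so they are not independent of one another.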

How the results depend on the processing

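Library totals and thinning to the smallest library each moved 9 of 16 counts of members by over 1.5 times or from 0. With library totals in place of TMM, members higher and lower were 6 and 18 under ISO, 3 and 23 under SR-3420, 17 and 6 with Lipase Inh. + ISO, 3 and 2 for ISO against SR-3420, and 1 was lower with Lipase Inh. + SR-3420. RLE factors kept all 16 counts within 1.5 times. DESeq2 gave 1 lower member with Lipase Inh. + SR-3420 and 1 positive SR-3420 interaction, no filter gave 1 and 0, and fits of only the groups compared gave 2 lower members with ISO and 0 positive SR-3420 interactions. Libraries thinned to the smallest gave 7 higher and 0 lower under ISO, 5 and 3 under SR-3420, 20 higher with Lipase Inh. + ISO, 3 positive ISO interactions, 0 positive and 2 negative SR-3420 interactions, and 5 higher for ISO against SR-3420, so depth limits these counts. With each library left out in turn, members lower ranged from 0 to 3 for ISO, 3 to 13 for SR-3420, 1 to 2 with Lipase Inh. + ISO and 0 to 1 with Lipase Inh. + SR-3420, positive interactions from 10 to 22 for ISO and 0 to 3 for SR-3420, and members higher for ISO against SR-3420 from 8 to 19. No member called higher in the main fit was called lower under library totals or with the replicate numbers in the fit. Changes that were not called could turn: with ISO, 22 members changed sign under library totals. In the 19S particle 15 of 17 genes were above 0 with TMM, and 3 of 17 were called lower under library totals. Some change above 0 thus became a called fall. The replicate block, with the replicate number as a covariate, gave 1 higher and 1 lower member with Lipase Inh. + SR-3420 and 1 lower for ISO against SR-3420. It kept every call on the members in all 8 comparisons. Among others it added Psmb9 with ISO (-0.68) and Psmb10 with SR-3420 (-0.53). On top of the inhibitors it added Psmb10 with ISO (0.51) and SR-3420 (-0.82). Over all genes it called 3506 higher and 3347 lower with ISO, against 3258 and 3042 in the main fit. Same-numbered samples deviated together by mean correlations of -0.01, 0.15 and 0.19, and 12 of 18 correlated best with their own number. The numbers may thus mark shared experiments. The study describes 3 independent experiments, but nothing states that a number marks one of them, and this was not tested. The main fit did not take same-numbered samples as pairs and may miss calls for that reason.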

Other observations

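Psma1 stood out from the other subunits, and its neighbours on chromosome 7 are given beside it; they were chosen after its values were seen. Copb1, a coat protein gene whose span ends 9870 bp from Psma1 (7:121359073-121398194 in mm9, minus strand), rose by 1.03 ± 0.06 with ISO, 0.74 ± 0.06 with SR-3420 and 1.16 ± 0.06 with Lipase Inh. + ISO. Pde3b, a phosphodiesterase gene 139138 bp away on the other side, rose by 0.85 ± 0.06, 0.33 ± 0.06 and 1.46 ± 0.06. Psma1 itself (7:121408064-121419630, minus strand) rose by 1.09 ± 0.08, 0.28 ± 0.08 and 1.61 ± 0.08 in the same comparisons. Rras2, beyond Copb1, rose by 0.44 ± 0.07 with ISO and 0.59 ± 0.07 with Lipase Inh. + ISO and did not pass with SR-3420 (0.07 ± 0.07), and Spon1 did not pass in any of the 3. Calca, beyond Pde3b and 355362 bp from Psma1, rose with Lipase Inh. + ISO (1.48 ± 0.53). It did not pass with ISO (0.98 ± 0.55) or SR-3420 (0.23 ± 0.59). Of all genes 26.8% rose with ISO, 26% with SR-3420 and 29.4% with Lipase Inh. + ISO.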
